A study of Mus musculus with 3 samples.

Results

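Visceral endoderm is the outer epithelium of the yolk sac in the mouse. Before the placenta takes over, it takes up maternal proteins from its surroundings by endocytosis, breaks them down in lysosomes, and passes sugars, lipids, iron and vitamins on to the embryo. It also secretes the serum proteins that the liver makes later. The 10 genes described here stand for these tasks and were taken by name. No measured value entered that rule, but earlier results of these data were known when the genes were chosen. They are the secreted carriers Afp, Ttr, Rbp4, Trf and Alb, the uptake genes Cubn, Amn and Dab2, the glucose transporter Slc2a2, and the transcription factor Hnf4a. Their 13 probes are among 55681 non-control probes, which stand for 36983 genes and other transcripts on the array. Of the 10 genes, 9 passed the filter on dim probes, with 11 of the 13 probes. Alb did not.

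The RNA came from mouse embryos at E8.75, a stage in days after conception. Each of 3 Agilent arrays with 2 colours held RNA labelled Brpf1-deficient in the Cy5 (red) channel and RNA labelled wild-type in the Cy3 (green) channel, which gives 3 embryo pairs. Brpf1 encodes a scaffold protein of histone acetyltransferase complexes. The labels give neither the strain nor the disrupted part of Brpf1, and they do not say whether the yolk sac was kept or whether an RNA came from 1 embryo or several.

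The ratio given for a gene is the log2 of Cy5 over Cy3, after loess normalization within each array, so a positive ratio is a brighter Cy5 channel. All arrays carried the dyes the same way, so dye and genotype cannot be told apart. The Brpf1 probe itself was brighter in Cy5, with log2 ratios of 2.01, 1.43 and 1.06 in pairs 1, 2 and 3. This goes against the labels if the probe lies within the disrupted part, which the labels do not give. The cause of the brighter signal was not tested. Directions below are therefore those of the channels as labelled, and the p-values measure the spread between these 3 pairs. Each SE below is the moderated SE of limma, which draws the variance of a gene towards that of all genes. For a gene with a large spread over the pairs, such as Afp, it is smaller than the SD over the pairs alone would give. In whole tissue, fewer cells of a type and less RNA per cell cannot be told apart.

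The sequences shown are the start regions of Afp and Alb, because these neighbouring genes on chromosome 5, related members of the albumin family, were at opposite ends of detection on the arrays. Each is 250 bases before and 50 bases from the start of transcription, from RefSeq with build GRCm38.p6, plus strand, written 5′ to 3′. Afp is at chr5:90490464-90490763 and Alb at chr5:90460620-90460919. Capitals mark TATAAA, the TATA box.
Afp: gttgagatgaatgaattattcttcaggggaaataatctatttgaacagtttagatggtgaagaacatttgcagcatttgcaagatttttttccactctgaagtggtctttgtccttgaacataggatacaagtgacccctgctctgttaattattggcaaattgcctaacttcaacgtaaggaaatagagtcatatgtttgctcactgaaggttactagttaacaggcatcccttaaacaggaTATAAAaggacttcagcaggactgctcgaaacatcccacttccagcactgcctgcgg
Alb: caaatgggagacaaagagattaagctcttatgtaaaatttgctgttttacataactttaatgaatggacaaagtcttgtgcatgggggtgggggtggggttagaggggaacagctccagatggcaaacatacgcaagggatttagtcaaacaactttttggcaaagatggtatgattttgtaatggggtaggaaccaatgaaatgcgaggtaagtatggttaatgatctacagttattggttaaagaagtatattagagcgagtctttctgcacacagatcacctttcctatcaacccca

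The Afp region held the TATA box from base -7, with the start site as base 0, and the Alb region held no match to it. The table of start regions held 11 for 8 of the 10 genes, some with several starts. Each motif was searched on both strands. The TATA box was in 2 of the 11, 1 each of Afp and Rbp4, against 13.6% of all 32851 start regions. The motif AGATAA, which GATA factors bind, was in 2 of the 11, 1 each of Dab2 and Hnf4a, against 11.2%. CAAAGTCCA, a core motif of HNF4, was in none of the 11, against 0.475% of all. A match describes the letters in these windows only.

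All 9 measured genes had a mean log2 ratio above 0, between 0.15 for Trf and 0.81 for Rbp4, against 45.6% of all genes, and none passed limma's test at an adjusted p of 0.05 over all 23555 genes. In that test 1.38% of all genes passed, 1.29% higher and 0.0934% lower in Cy5. At an unadjusted p below 0.05 in limma, 5 of the 9 were higher in Cy5, namely Rbp4, Slc2a2, Ttr, Cubn and Amn, against 8.23% of all genes, and 0 were lower, against 9.12%. In all 3 pairs, 6 of the 9 were above 0, against 19.7% of all genes. These shares are over genes of every brightness. Bright genes, among them Afp, Rbp4, Ttr and Cubn, were above 0 far more often, as given below. The median over the 9 genes was 0.12 in pair 1, 0.43 in pair 2 and 0.55 in pair 3, while the median over all genes was -0.02, -0.04 and -0.01. The 9 genes were chosen with earlier results of these data known.

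**Figure D1:**
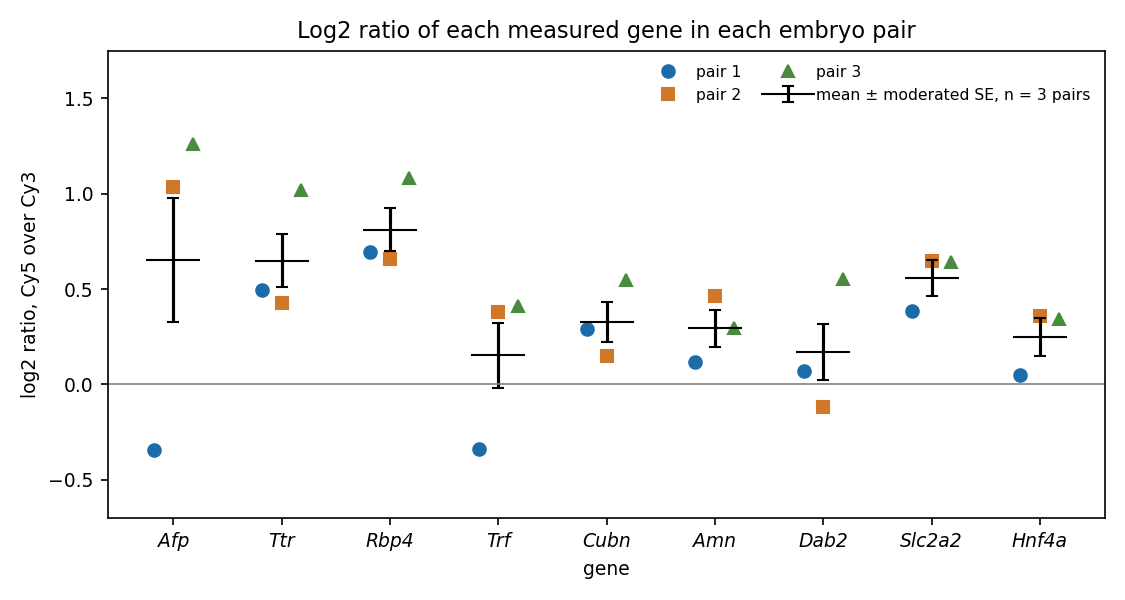
Log2 ratio of Cy5 (labelled Brpf1-deficient) over Cy3 (labelled wild-type) for each measured gene in pairs 1, 2 and 3, with the mean and its moderated SE (n = 3 pairs). Afp and Trf lie below 0 in pair 1 and above 0 in pairs 2 and 3, and Dab2 lies below 0 in pair 2. With median centring in place of loess, Afp (0.42) and Trf (0.20) lie above 0 in pair 1 too.

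Rbp4 carries retinol out of the tissue that stores or absorbs it. Its log2 intensity after normalization between arrays was 17.50, 17.19 and 17.64 in Cy5 and 16.80, 16.54 and 16.55 in Cy3, in pairs 1, 2 and 3. All Cy5 values lay above all Cy3 values. The log2 ratios were 0.70, 0.66 and 1.08. They averaged 0.81 ± 0.11 (moderated SE, n = 3 pairs), a 1.76-fold difference (limma adjusted p = 0.0558).

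Ttr, transthyretin, binds thyroid hormone and holds the Rbp4 and retinol complex in the circulation. Its log2 intensity was 17.16, 16.74 and 17.39 in Cy5 and 16.67, 16.31 and 16.37 in Cy3. As for Rbp4, the channels did not overlap. These were the 2 of 9 genes with all Cy5 values above all Cy3 values, against 8.55% of all genes, of every brightness. The ratios were 0.50, 0.43 and 1.02, with a mean of 0.65 ± 0.14 (SE, limma adjusted p = 0.146). Rbp4 and Ttr therefore had like ratios in pairs 1 and 2 and higher ones in pair 3.

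Afp, alpha-fetoprotein, is the main serum protein of the early mouse embryo and its yolk sac. Its log2 intensity was 17.31, 17.20 and 17.67 in Cy5 and 17.65, 16.17 and 16.41 in Cy3. The channels overlapped, because the Cy3 value of pair 1 lay 1.36 above the mean of the Cy3 values of pairs 2 and 3. The Cy5 value of pair 1 lay within 0.13 of the mean of the other pairs. The ratio was -0.34 in pair 1, 1.03 in pair 2 and 1.26 in pair 3, and its mean was 0.65 ± 0.32 (SE, limma adjusted p = 0.364). With median centring in place of loess, pair 1 had 0.42, above 0, and pairs 2 and 3 had 1.23 and 1.84, so the sign of pair 1 depended on the normalization. At the main setting its SD over the pairs, 0.87, was larger than that of 99.0% of all genes.

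The Afp probe is printed on 10 spots of each array, and their spread is the error of the measurement within an array. In pair 1 the ratios of the 10 spots ran between -0.45 and -0.29, in pair 2 between 0.95 and 1.11, and in pair 3 between 1.20 and 1.31. The SD over spots was 0.042, 0.046 and 0.039, so the gap between pair 1 and the other pairs was far larger than the spread between spots. The raw median signals, before normalization, did not show the negative sign. In them Cy5 was above Cy3 in every pair, and Cy3 was highest in pair 1. Raw Cy5 was also the brighter channel for most kept probes, with median log2 ratios of 0.82, 0.41 and 0.72 in pairs 1, 2 and 3. In pair 1 they held 237508 to 268299 in Cy5 and 105706 to 115858 in Cy3. In pair 2 they held 189105 to 212684 in Cy5 and 53709 to 60248 in Cy3, and in pair 3 they held 303794 to 345713 in Cy5 and 55018 to 60498 in Cy3. The median Cy3 signal of pair 1 was 1.91 times the mean of the other pairs. No spot of any of the 13 probes was saturated or marked as an outlier.

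Trf, transferrin, delivers iron. It shared the sign pattern of Afp. Its log2 intensity was 15.82, 15.55 and 16.18 in Cy5 and 16.16, 15.17 and 15.77 in Cy3, and the channels overlapped. The ratios were -0.34, 0.38 and 0.41, with a mean of 0.15 ± 0.17 (SE, limma adjusted p = 0.666). A second Trf probe gave -0.34, 0.20 and 0.41, and was below 0 in pair 1 as well. With median centring in place of loess, the first probe had 0.20, 0.33 and 0.84, above 0 in pair 1.

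Alb, albumin, the main serum protein of later stages, was not well above background in either channel on any array. Its probe had median signals of 160, 128 and 145.5 in Cy5 over local backgrounds of 109, 118 and 114, and 92, 63 and 95 in Cy3 over 39, 39 and 47. No fold is given for it.

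Among the uptake genes, Cubn and Amn encode the 2 parts of the cubam receptor, in which cubilin binds the ligand and amnionless anchors it in the membrane. Cubn had log2 intensities of 16.42, 15.92 and 16.65 in Cy5 and 16.13, 15.78 and 16.11 in Cy3. Its ratios were 0.29, 0.15 and 0.55, with a mean of 0.33 ± 0.11 (SE, limma adjusted p = 0.237). A second, dimmer Cubn probe gave -0.02, 0.40 and 0.45, so the probes differed in pair 1, where the dimmer one had no positive ratio.

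Amn had log2 intensities of 15.24, 14.60 and 15.18 in Cy5 and 15.12, 14.13 and 14.88 in Cy3. Its ratios were 0.12, 0.46 and 0.30, with a mean of 0.29 ± 0.10 (SE, limma adjusted p = 0.25). In both genes Cy5 was the brighter channel in every pair by the brightest probe, while the channels overlapped because the pairs differed from each other by more than the channels did.

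Dab2 is a clathrin adaptor that brings cubilin and its partner megalin into coated pits. It had log2 intensities of 15.30, 14.68 and 15.67 in Cy5 and 15.23, 14.79 and 15.11 in Cy3. The ratios were 0.07, -0.12 and 0.55, with a mean of 0.17 ± 0.15 (SE, limma adjusted p = 0.574). The positive mean rested on pair 3, and without that pair it was -0.024. A second Dab2 probe, named by the deposited table through an Ensembl transcript, stayed at background level on all arrays.

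Slc2a2 encodes GLUT2, a low-affinity glucose transporter of yolk sac, liver and pancreas. Its log2 intensity was 14.10, 13.44 and 14.31 in Cy5 and 13.71, 12.79 and 13.67 in Cy3. The ratios were 0.39, 0.65 and 0.64. They averaged 0.56 ± 0.09 (moderated SE, n = 3 pairs), a 1.47-fold difference (limma adjusted p = 0.0867). Its ratio had the smallest SD over the pairs of the 9 genes, 0.15.

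Hnf4a encodes a nuclear receptor that visceral endoderm of the mouse needs to make many of its secreted proteins. It had log2 intensities of 14.71, 13.89 and 14.79 in Cy5 and 14.66, 13.53 and 14.44 in Cy3. The ratios were 0.05, 0.36 and 0.35, with a mean of 0.25 ± 0.10 (SE, limma adjusted p = 0.293, 95% interval -0.0039 to 0.51). Cy5 was brighter in every pair, but in pair 1 by little.

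**Figure D2:**
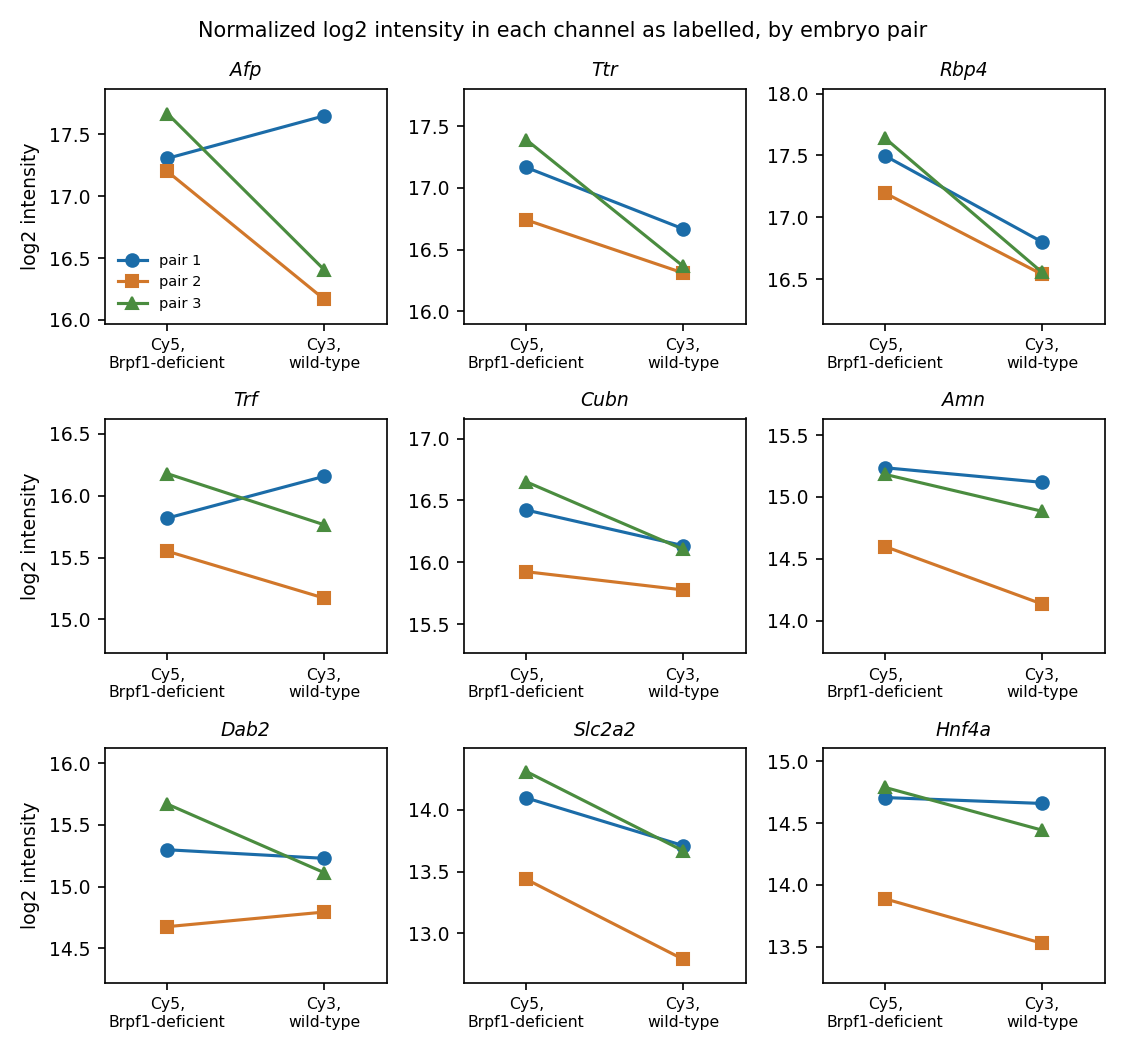
Log2 intensity of the 9 measured genes in the Cy5 channel (labelled Brpf1-deficient, left) and the Cy3 channel (labelled wild-type, right), 1 line per pair, after loess and normalization between arrays. All panels span the same range on the log2 scale, at different heights. Pair 2 is the lowest in both channels for all 9 genes, and the lines of Afp and Trf in pair 1 and of Dab2 in pair 2 slope the other way. In raw Cy3 signals pair 2 is not the lowest for Rbp4, Ttr and Dab2.

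The pairs differed in the level of these genes as well as in their ratio. After loess and normalization between arrays, pair 2 was the lowest pair for all 9 genes in Cy5 and also in Cy3, against 16.9% of all genes. Both channels of an array share its spots, so they are not independent in this count. In the raw Cy3 medians pair 2 was the highest for Rbp4 (63699.5, 73367 and 63765.5 in pairs 1, 2 and 3) and Ttr (60769, 63916 and 56360.5). For Dab2 (26871, 24199.5 and 23785) pair 3 was the lowest. With both channels averaged and each gene centred on its own mean, the median level of the 9 genes was 0.21 in pair 1, -0.39 in pair 2 and 0.20 in pair 3, while the median over all genes was 0.00, 0.01 and -0.01.

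Markers of other cell types moved with the pairs too. The 10 primitive erythroid markers, of the red cells that form in the yolk sac, had median levels of 0.75, -1.23 and 0.42 in pairs 1, 2 and 3, and all 10 were lowest in pair 2 in both channels. The 10 heart muscle markers, of the embryo proper, had -0.18, 0.36 and -0.14, and 0 of them were lowest in pair 2 in both channels. The decidua markers (0.02, -0.04 and 0.03), trophoblast markers (0.13, -0.09 and -0.05) and parietal endoderm markers (-0.01, -0.04 and -0.0048) varied less. The part of yolk sac in each RNA was not tested.

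**Figure D3:**
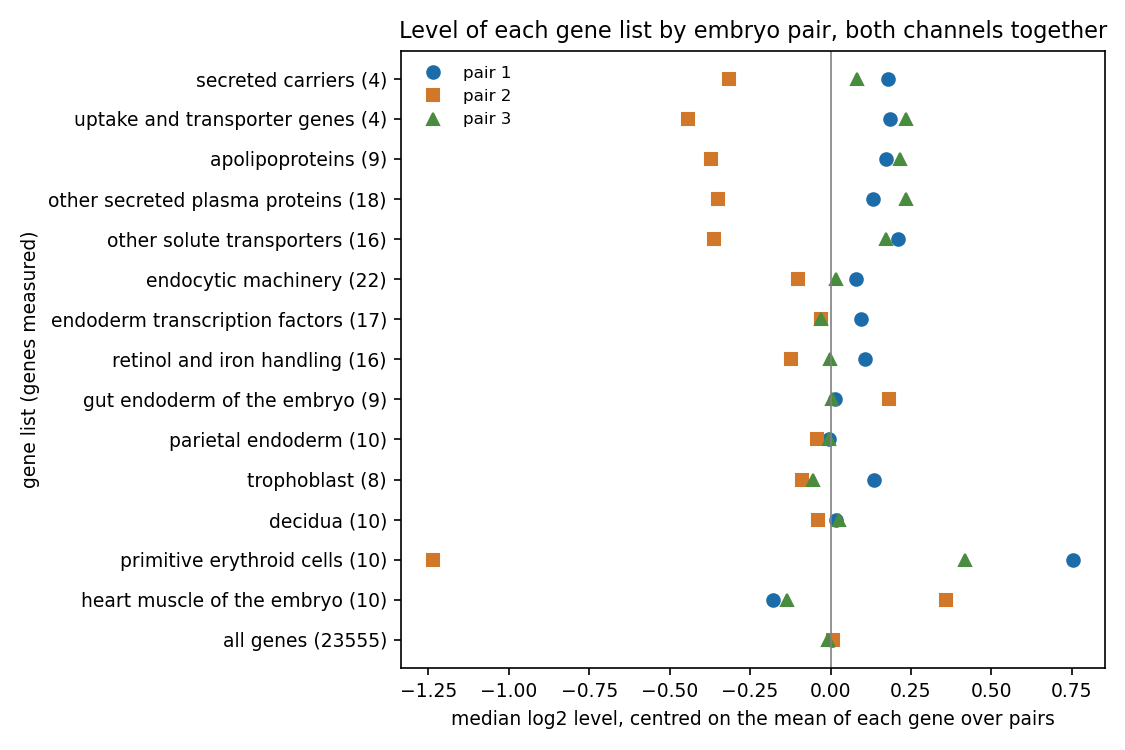
Median level of each gene list in pairs 1, 2 and 3, both channels together, as log2 intensity minus the mean of each gene over the pairs. Secreted carriers, uptake genes, apolipoproteins, plasma proteins, solute transporters and primitive erythroid markers are lowest in pair 2, and heart muscle markers are highest there.

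The ratios of the erythroid list also differed by pair, with medians of -0.54, 0.63 and 0.13 in pairs 1, 2 and 3, and 1 of its 10 measured genes was above 0 in pair 1. Summed over the list, the normalized intensity lay between 547858 and 925942 in Cy5 and between 243715 and 908228 in Cy3. The normalized Cy3 sum was highest in pair 1, as was the normalized Cy3 intensity of every measured visceral endoderm gene, not of Afp alone. The raw Cy3 signal was highest in pair 2 for Rbp4 and Ttr, and in pair 3 for Cubn. In the erythroid list 1 gene rose, against 1.29% of all genes, and 0 fell, against 0.0934%. It was the embryonic globin Hbb-bh1 (1.28 ± 0.16, SE, limma adjusted p = 0.0418), with a mean log2 intensity of 17.60. Of the 544 genes brighter than 17, 280 rose. The mean ratio of Hbb-bh1 was 0.23 at the loess span of 0.02. The decidua list had median ratios of -0.30, -0.45 and 0.56, with summed intensities of 48703 to 92403 in Cy5 and 59612 to 86591 in Cy3, and 4 of its 10 means were above 0. Its genes with the smallest p were the homeobox factor Hoxa10 (0.10, 0.16 and 1.25), the prolactin-family hormone Prl8a2 (-0.74, -3.55 and 0.60) and the matrix proteoglycan Dcn (-1.05, -0.36 and 0.43), and 0 of the 10 passed limma's test or had an unadjusted p below 0.05. All 10 markers of each of these lists were above background. Their part in the ratios of the visceral endoderm genes was not tested.

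Brightness moved with several of the ratios: with the loess span used (0.3) the brightest genes of all kinds were above 0. The median ratio was 0.75 over the 544 genes brighter than 17 in mean log2 intensity, 0.11 between 16 and 17, and -0.07 between 15 and 16. Above 17, all 544 had a mean above 0 and 522 were above 0 in all 3 pairs. At an unadjusted p below 0.05 in limma 514 were higher, and 280 passed at the adjusted p, of 304 genes that rose in all. Between 16 and 17 these counts were 553, 328, 184 and 3 of 750 genes. Between 14 and 15, where Amn and Hnf4a lie, they were 469, 156, 32 and 0 of 1700. Afp and Rbp4 lie above 17, and Ttr and Cubn lie between 16 and 17. Among genes within 0.5 of its own log2 intensity, the mean ratio of Slc2a2 was above that of 99.7%, that of Amn above 98.9%, Hnf4a 97.8%, Cubn 96.9%, Dab2 96.1% and Trf 92.6%. The same share was 87.0% for Ttr, 77.2% for Rbp4 and 64.4% for Afp. The dimmer genes, Slc2a2, Amn and Hnf4a, thus stood farther out among genes of like brightness than Rbp4, whose ratio was the largest of the 9.

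For Afp this share was 0.118% of 851 genes in pair 1, 91.5% in pair 2 and 97.6% in pair 3. For Trf it was 3.76% of 932 genes in pair 1, 95.2% in pair 2 and 98.3% in pair 3. Relative to genes of like brightness, both were therefore near the bottom in pair 1 and near the top in pairs 2 and 3.

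**Figure D4:**
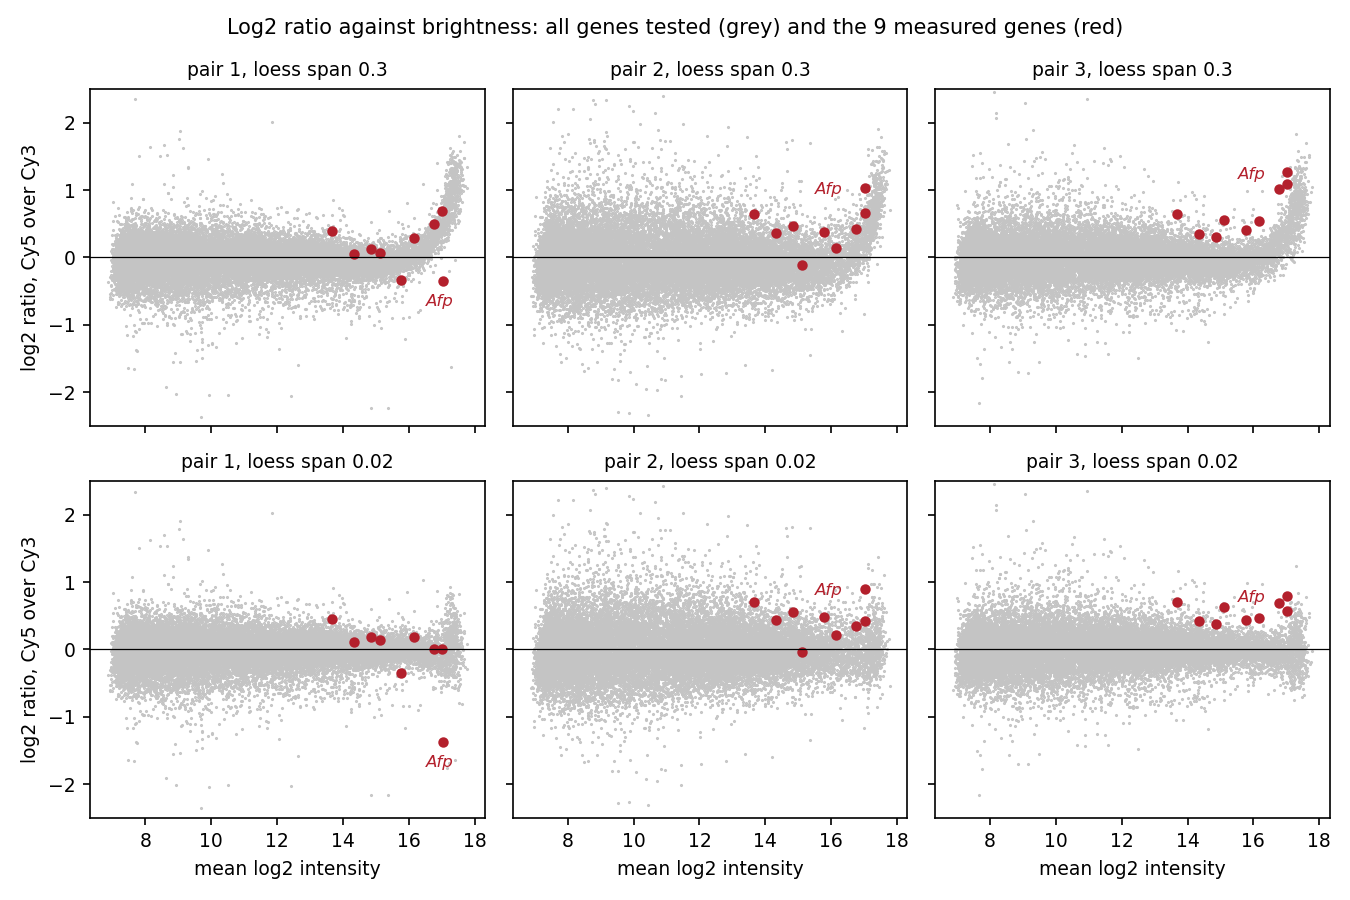
Log2 ratio of Cy5 over Cy3 against mean log2 intensity in pairs 1, 2 and 3, for all 23555 genes tested (grey, values off the axis not drawn) and the 9 measured genes (red), with a loess span of 0.3 (top) and 0.02 (bottom). The grey cloud bends up above 16 at the wide span and is level at the narrow one, where Afp has -1.38 in pair 1.

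With a narrow loess span, 0.02, the curve follows the bright genes closely and the bright carriers moved most. Rbp4 had 0.0029, 0.42 and 0.57 (mean 0.33 ± 0.13, SE, limma adjusted p = 0.342), Ttr had 0.012, 0.35 and 0.68 (mean 0.35 ± 0.14, limma adjusted p = 0.354), and Afp had -1.38, 0.90 and 0.79 (mean 0.10 ± 0.48, limma adjusted p = 0.932). Rbp4 and Ttr were then near 0 in pair 1 and above 0 in pairs 2 and 3. The other 6 genes moved by less, with Slc2a2 at 0.62 ± 0.09 (limma adjusted p = 0.273) and Amn at 0.37 ± 0.10 (limma adjusted p = 0.282). At this span 6 of the 9 genes were again above 0 in all pairs, against 20.2% of all genes, and the median of the 9 means was 0.33, the same as at the wide span.

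Without pair 1 the mean ratio of Afp was 1.15 and that of Trf 0.40, and neither passed (limma adjusted p = 0.2 and 0.504). In the authors' deposited table, turned to Cy5 over Cy3, the probes used for Rbp4, Ttr, Afp and Slc2a2 had 0.78, 0.62, 0.62 and 0.56, and those for Cubn, Amn, Hnf4a and Dab2 had 0.30, 0.27, 0.23 and 0.15. The lowest adjusted p among them in the authors' deposited table was 0.32, for Rbp4.

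Other genes of the same tasks were read from lists. At the loess span of 0.02, or with any 1 pair left out, 0 of all genes passed limma's test, so each gene said to have risen or fallen lost its call there, whether or not its ratio moved. Of 9 apolipoproteins, the lipid carriers that visceral endoderm also secretes, all had a mean ratio above 0, against 45.6% of all genes. Their median was 0.52, and 0.47, 0.54 and 0.55 in pairs 1, 2 and 3. In that list 1 gene rose, against 1.29% of all genes, and 0 fell, against 0.0934%. It was the lipoprotein lipase cofactor Apoc2 (1.16 ± 0.12, SE, limma adjusted p = 0.0296). Apoc2 had 0.79 at the loess span of 0.02. Apoc2 and Apoe, with mean log2 intensities of 16.87 and 16.79, lie between 16 and 17, where 553 of 750 genes had a mean above 0. Apoe had 0.50, and 0.18 at the narrow span, where all 9 apolipoproteins were again above 0 (median 0.54). At the main span the apolipoprotein medians differed less between pairs than those of the 4 measured secreted carriers, 0.08, 0.54 and 1.05. That difference was not tested. At the loess span of 0.02 the carriers had -0.18, 0.45 and 0.62, with pair 1 below 0.

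Of 18 other measured plasma proteins 15 were above 0, against 45.6% of all genes (median 0.29), and 0 passed limma's test. At an unadjusted p below 0.05, 6 were higher, against 8.23% of all genes, and 2 lower, against 9.12%. Gc, the vitamin D carrier, had 0.44 ± 0.09 (SE, limma adjusted p = 0.131) and Ambp, the precursor of alpha-1-microglobulin, 0.50 ± 0.13 (limma adjusted p = 0.195), while Serpinf1, an inhibitor of vessel growth, had -0.60 ± 0.14 (limma adjusted p = 0.168). By pair the list had medians of 0.03, 0.26 and 0.52, in the same order as the carriers.

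Of 16 measured solute transporters 14 were above 0, against 45.6% of all genes (median 0.31), and 0 passed limma's test. At an unadjusted p below 0.05, 6 were higher, against 8.23% of all genes, and 0 lower, against 9.12%. Slc7a7, a transporter of basic amino acids, had 0.47 ± 0.09 (SE, limma adjusted p = 0.121), Slc23a1, a vitamin C transporter, 0.44 ± 0.09 (limma adjusted p = 0.129) and Slc13a4, a sulphate transporter, 0.49 ± 0.10 (limma adjusted p = 0.142). Each was above 0 in all 3 pairs.

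Of 22 genes of the general endocytic machinery 13 were above 0, against 45.6% of all genes, the median was 0.039, and 0 passed limma's test. At an unadjusted p below 0.05, 3 were higher, against 8.23% of all genes, and 1 lower, against 9.12%. Ctsl, a lysosomal protease, had 0.52 ± 0.09 (SE, limma adjusted p = 0.0882), the clathrin light chain Clta 0.21 ± 0.08 (limma adjusted p = 0.281) and the clathrin adaptor subunit Ap2b1 -0.60 ± 0.13 (limma adjusted p = 0.156).

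Endoderm transcription factors other than Hnf4a had a median of 0.042 over 17 measured genes. Of these 11 were above 0, against 45.6% of all genes, and 0 passed limma's test. At an unadjusted p below 0.05, 3 were higher, against 8.23% of all genes, and 0 lower, against 9.12%. Nr5a2, a nuclear receptor of endoderm, had 0.43 ± 0.17 (SE, limma adjusted p = 0.285). Onecut1 and Hnf4g were not above background.

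In retinol and iron handling, 9 of 16 measured genes were above 0, against 45.6% of all genes (median 0.05). In that list 1 gene rose, against 1.29% of all genes, and 0 fell, against 0.0934%. It was the ferritin light chain Ftl1 (0.77 ± 0.10, SE, limma adjusted p = 0.0407), which had -0.09 at a loess span of 0.02. Ftl1 had a mean log2 intensity of 17.42, and 280 of the 544 genes brighter than 17 rose. Fth1, the ferritin heavy chain, had 0.71 ± 0.12 (limma adjusted p = 0.081) and 0.11 at the narrow span. Crabp1, a retinoic acid binding protein, had -0.29 ± 0.09 (limma adjusted p = 0.228).

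Marker lists of other tissues had medians nearer to 0 or below it. Gut endoderm of the embryo had -0.0036 over 9 measured genes, parietal endoderm -0.01 over 10, and trophoblast -0.01 over 8, with 0 genes past limma's test in each. At an unadjusted p below 0.05, gut endoderm had 2 higher, against 8.23% of all genes, and 2 lower, against 9.12%. Parietal endoderm and trophoblast had 0. Heart muscle had -0.30 over 10 genes, with 0 genes that rose, against 1.29% of all genes, and 3 that fell, against 0.0934%. Most genes that rose, 280 of 304, were brighter than 17, and no heart gene was. The 3 that fell were the cardiac myosin Myh6 (-0.70 ± 0.08, SE, limma adjusted p = 0.0313), the calcium release channel Ryr2 (-0.64 ± 0.09, limma adjusted p = 0.0483) and titin, Ttn (-0.62 ± 0.08, limma adjusted p = 0.0485). At the loess span of 0.02, where none of them passed, they had -0.62, -0.61 and -0.60. The mean was above 0 for 2 of the 10, Nppa (-0.37, 1.62 and 1.66, mean 0.97 ± 0.43, limma adjusted p = 0.326) and Actc1 (0.09). By pair the list had medians of -0.43, -0.38 and -0.01, with 5 of 10 genes above 0 in pair 3.

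**Figure D5:**
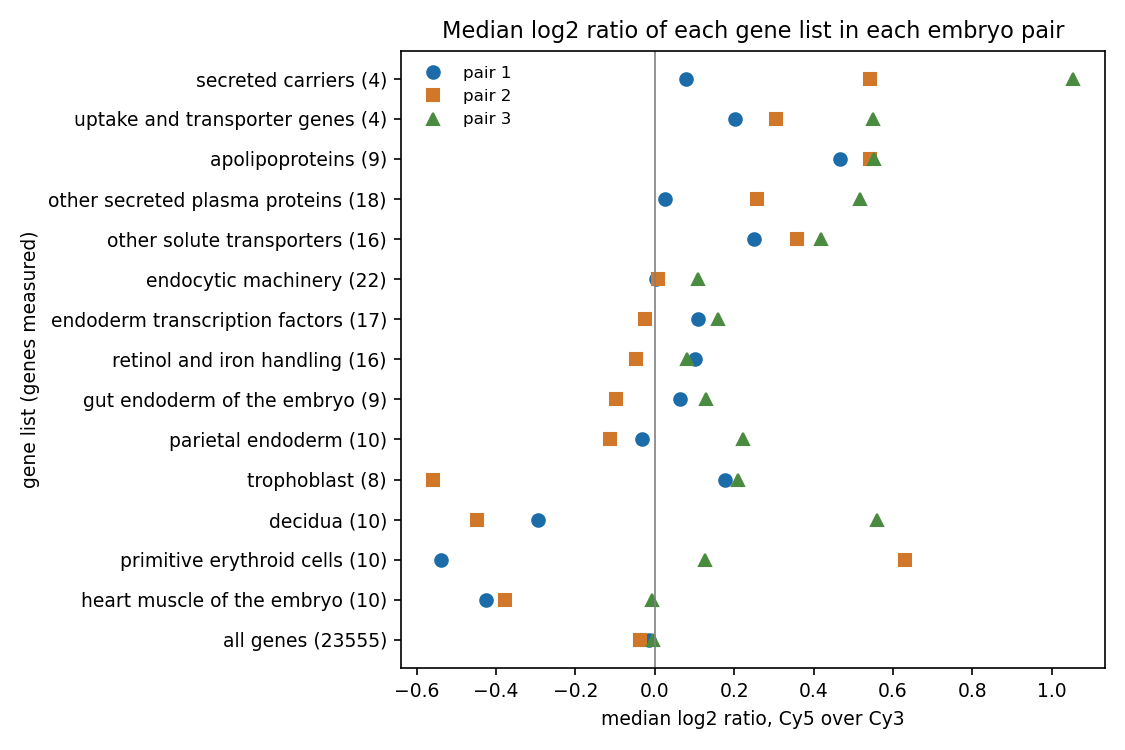
Median log2 ratio of Cy5 over Cy3 of each gene list in pairs 1, 2 and 3, with the number of genes measured. Secreted carriers, uptake genes, apolipoproteins, plasma proteins and solute transporters are above 0 in all pairs, with pair 1 lowest in each. At the loess span of 0.02 the carriers' median in pair 1 is -0.18, below 0.

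The genes with a matched name whose 3 ratios lay nearest to the medians of the 9 genes, by Euclidean distance over the 3 pairs, were Tec (0.13, 0.37 and 0.57, at a distance of 0.062), Hkdc1 (0.13, 0.43 and 0.62, 0.067), Gjb1 (0.19, 0.38 and 0.56, 0.086), Cd59a (0.06, 0.45 and 0.49, 0.090) and Pdzd3 (0.16, 0.46 and 0.65, 0.11).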

How the data were processed

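RNA of 3 embryo pairs was hybridised to 2-colour Agilent arrays on 1 slide, from 350 ng of RNA with 1 round of amplification per the labels' protocols. The deposited scanner files hold spot intensity per channel, made with Feature Extraction 10.7.3.1 per the file headers. Their log10 ratios and processed intensities, and the deposited table of log2 ratios, log2 mean intensities, p-values and a score (the log odds of change), were made by the authors. The submitters' processing notes name limma, with no version.

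Median spot signals, the ones read here in place of means, were corrected with normexp (offset 50) and loess (span 0.3, control and outlier spots at weight 0) in limma 3.58.1 with R 4.3.3. A probe was kept where, in 1 channel, a share of at least 0.5 of its spots rose well over the background on 2 or more of 3 arrays, which left 31603 of 55681 probes. The brightest probe stood for a gene. Names came from the deposited table or from RefSeq accessions with GRCm38.p6, which matched 27656 probes. Trf was named by accession only. The ratios of 23555 genes were tested against 0 with limma and adjusted by Benjamini-Hochberg, with a threshold of 0.05, two-sided. Single channels were also normalized between arrays (Aquantile). The deposited table runs as Cy3 over Cy5, since its ratios correlated at -0.80 with Cy5 over Cy3 over 39915 probes.

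The genes and lists were chosen with earlier results of these data known. The text names all 10 genes, up to 3 genes of each list by smallest p, the 5 genes nearest to the median pattern, and Brpf1, except 1 transcription factor not reported here. For marker lists of other tissues the text names the genes past the test, the 2 heart genes with a mean above 0, and the 3 decidua genes with the smallest p, chosen after their values were seen. Alternatives were a span of 0.02, median centring, processed signals, no background subtraction, no filter, the mean of probes, the deposited table, the pair as replicate block, and each pair left out. The fit was tested on simulated data. Precision is limited by the number of arrays, 3.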

Additional observations from a re-analysis of the deposited data

How the results depend on the processing

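Of all genes, 326 passed limma's test, against 0 at a loess span of 0.02, 201 with the mean of the kept probes, 651 with median centring, 0 with the processed signals, 0 in the authors' deposited table, and 0 to 0 with each pair left out. Of the 9 measured genes 0 passed, against 2 with median centring (Rbp4 at 1.32 and Ttr at 1.12) and 1 with no filter on dim probes (Rbp4). Median centring moved the median of the 9 genes to 0.55, that of the carriers to 1.14 and that of the uptake and transporter genes to 0.50. The carriers' median, 0.65, was 0.26 at the loess span of 0.02, 0.28 with the processed signals and 0.40 to 0.80 with each pair left out. With median centring the ratios of Afp (0.42) and Trf (0.20) in pair 1 were above 0, against values below 0 with loess or processed signals. The only mean of the 9 genes that changed sign was Dab2, at -0.024 without pair 3, with a range of -0.024 to 0.31 over the pairs left out. Afp ran between 0.10 at the narrow span and 1.17 with median centring, Rbp4 between 0.33 and 1.32, Ttr between 0.35 and 1.12, and Slc2a2 between 0.51 and 0.64. Medians of the gut endoderm, parietal endoderm, trophoblast, decidua, erythroid, endocytic, and retinol and iron lists took either sign across settings. The cause of these differences was not tested, and fewer pairs leave fewer degrees of freedom. The ratio within an array already pairs its RNAs, and the channels with the pair as replicate block gave the same median, 0.33.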
